A study of Homo sapiens with 8 samples.

Results

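The genes described here are 46 genes of the spliceosome and of the proteins that guide it, chosen by symbol from a fixed list. That list was chosen with earlier results of these data known. All 46 genes were found among the 18143 gene labels that could be placed on their values. They fall into 9 role groups: the Sm core, the U1, U2 and U5 with tri-snRNP proteins, U2AF, the PRPF19 complex, the helicases DHX15 and DDX5, the SR proteins and the hnRNP proteins. RNA-seq was done on 8 libraries from Burkitt's lymphoma lines. Raji is described as sensitive to rituximab, an antibody against CD20, and Raji-4RH is its resistant derivative. Each line received the solvent DMSO or 3 μM chidamide, an inhibitor of histone deacetylases, for 24 h, with 2 libraries in each of the 4 groups. The cells were used at passage 2-3 by the labels and collected by flow sorting. Each line is a single resistant or sensitive line, so that line and resistance cannot be told apart.

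The spliceosome removes introns from pre-mRNA. U1 snRNP reads the 5′ splice site, U2AF and U2 snRNP mark the 3′ splice site and the branch point, and the tri-snRNP of U4, U6 and U5 then joins to form the catalytic core. The Sm proteins form a ring around most of the spliceosomal RNAs, while SR and hnRNP proteins bind exons and introns and shift which splice sites are used. The measurements below are transcript levels of these genes and do not measure splicing itself.

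The library totals, recovered from the FPKM values as reads counted to genes, ran from 13991697 to 21193441. Chidamide replicate 1 of Raji-4RH was the smallest. Replicates of one group differed for the 46 genes by -0.16 to 0.29 on the log2 scale in Raji with DMSO, by -0.17 to 0.14 in Raji with chidamide and by -0.11 to 0.098 in Raji-4RH with DMSO. In Raji-4RH with chidamide they differed more, by -0.39 to 0.62. All 8 libraries were fitted together, so this wider spread also entered the standard errors and p-values of the other comparisons. In the deposited table labels and values were out of step: the values of 26 of the 46 genes stood in the row of their label and those of the other 20 stood 1 to 12 rows lower, and each gene was read from the row the placement gave. All 5 B cell markers reported (CD22, CD79A, CD79B, MS4A1 and PAX5) were present, with summed levels of 993 to 1027 FPKM (reads scaled by gene length and library total) in Raji DMSO, 883.1 to 893.3 in Raji chidamide, 680.2 to 719.2 in Raji-4RH DMSO and 548.4 to 568.8 in Raji-4RH chidamide. CD79A made up much of this sum, and the markers did not move one way: with chidamide 3 of the 5 were called higher and 2 lower in Raji-4RH, and 2 higher and 1 lower in Raji. The 5 myeloid markers summed to 1.03 to 1.04 FPKM in Raji DMSO and 9.71 to 9.73 with chidamide, and to 0.917 to 0.991 in Raji-4RH DMSO and 10.3 to 10.7 with chidamide. Of these, S100A8 was at 0 in 7 of the 8 libraries. The 4 T cell markers placed summed to at most 4.89 FPKM and the 4 epithelial and stromal markers placed to at most 2.32. The part of these other markers in the results below was not tested. In bulk RNA, fewer cells and less RNA per cell cannot be told apart.

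Upstream sequence was read for 41 of the 46 genes from RefSeq windows (GRCh38.p14, 250 bases before to 50 after the gene start). No entry was found for SNRPD1, SF3B3, PRPF3, SRSF2 and HNRNPA1. Letters were searched on both strands. The ETS letters CCGGAAG stood in 16 of the 41 windows, or 39.0%, against 20.3% of the windows of the genes tested and 10.7% of all 27305 windows. The E-box letters CACGTG stood in 12.2% of the 41 windows, 10.2% of those of tested genes and 7.44% of all. The NRF1 letters (GCGC, any base, then TGCGC) stood in 17.1%, 12.5% and 6.29%, and the E2F letters TTTNGCGC in 2.44%, 2.97% and 1.83%. By role, the ETS letters were in 6 of 7 U2 snRNP windows and 4 of 6 Sm core windows but in 1 of 7 hnRNP and 1 of 6 SR windows. The stretches below are those of U2 snRNP and U2AF2, shown because they include the 2 largest falls with chidamide in Raji-4RH, SF3A3 and U2AF2, and the only rise, SF3B1. They were picked after the expression values were seen. Each is read 5′ to 3′ along the gene's strand, and capitals mark the letters found, which are CCGGAAG or its reverse complement CTTCCGG except in SF3B1, where they are the E-box and, overlapping, the E2F and NRF1 letters. SF3A2 also holds the NRF1 letters farther upstream, which are not shown. In 9 of the 11 stretches the bases overlap an exon of the same gene in GENCODE v29, whose starts differ from those of RefSeq.
SNRPA1, chr15:101295345-101295371, minus strand: cgcgccacgaCTTCCGGcaagaacgcc
SF3A1, chr22:30356927-30356953, minus strand: ggggacggtcCCGGAAGtgcgccagtc
SF3A2, chr19:2236805-2236831, plus strand: ctcatttgccCCGGAAGtgctttcttt
SF3A3, chr1:37990074-37990100, minus strand: tcccggggcaCTTCCGGcactcgcgga
SF3A3, chr1:37989998-37990024, minus strand: gcaggagttgCTTCCGGccgtgttggt
SF3B2, chr11:66052301-66052327, plus strand: tacggcgccaCCGGAAGttccggcaag
SF3B2, chr11:66052340-66052366, plus strand: ctggccccagCTTCCGGgttggtcgcg
SF3B4, chr1:149927813-149927839, minus strand: cgtcttcgccCCGGAAGtggaagtcgt
U2AF2, chr19:55654995-55655021, plus strand: ccggcggcggCCGGAAGtagccgaagc
SF3B1, chr2:197435121-197435146, minus strand: gcagttctgtCACGTGtcacccgacg
SF3B1, chr2:197435086-197435115, minus strand: cgctcccgTTTGGCGCACGCGCagagtgca
These letters are a description of the sequence and do not show that a factor binds there. The median log2 fold change with chidamide in Raji-4RH was -0.73 for the 16 genes with ETS letters and -0.46 for the 25 without. Among those with the letters were SRSF5 (-0.031) and SNRPD2 (-0.19), and among those without were HNRNPM (-0.85) and SNRPF (-0.81). A relation of the letters to the falls was not tested.

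Chidamide lowered most of the splicing genes in Raji-4RH. Between the DMSO and the chidamide libraries, 40 of the 46 genes fell, 1 rose and 5 did not pass the test, by limma on log2(FPKM + 1) with a Benjamini-Hochberg adjusted p under 0.05. Of all 10710 genes tested, 31.6% were called lower and 43.3% higher in the same comparison. The median log2 fold change was -0.55 over the 46 genes and 0.093 over all genes tested. Fold changes are differences of log2(FPKM + 1), with n = 2 libraries in each group. The 46 genes took 1.86% of the reads in both Raji-4RH DMSO libraries and 1.37% and 1.28% in the chidamide libraries. Without chidamide replicate 1 of Raji-4RH 41 genes were called lower, and without replicate 2 the count was 38. For 42 genes both chidamide libraries were below both DMSO libraries, for 2 they were above, and for 2 the groups overlapped, against 36.8% of all genes tested below and 49.7% above without overlap. Under quantile normalization, which moved the median of all genes from 0.093 to -0.022, 30 of the 46 were called lower and 4 higher, and the calls over all genes moved from 3380 lower and 4642 higher to 4057 lower and 3718 higher. With median-centred libraries 42 of the 46 were called lower, beside 3908 lower and 4141 higher over all genes. By limma voom on recovered reads 42 were called lower, beside 3408 lower and 4705 higher over all genes.

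**Figure D1:**
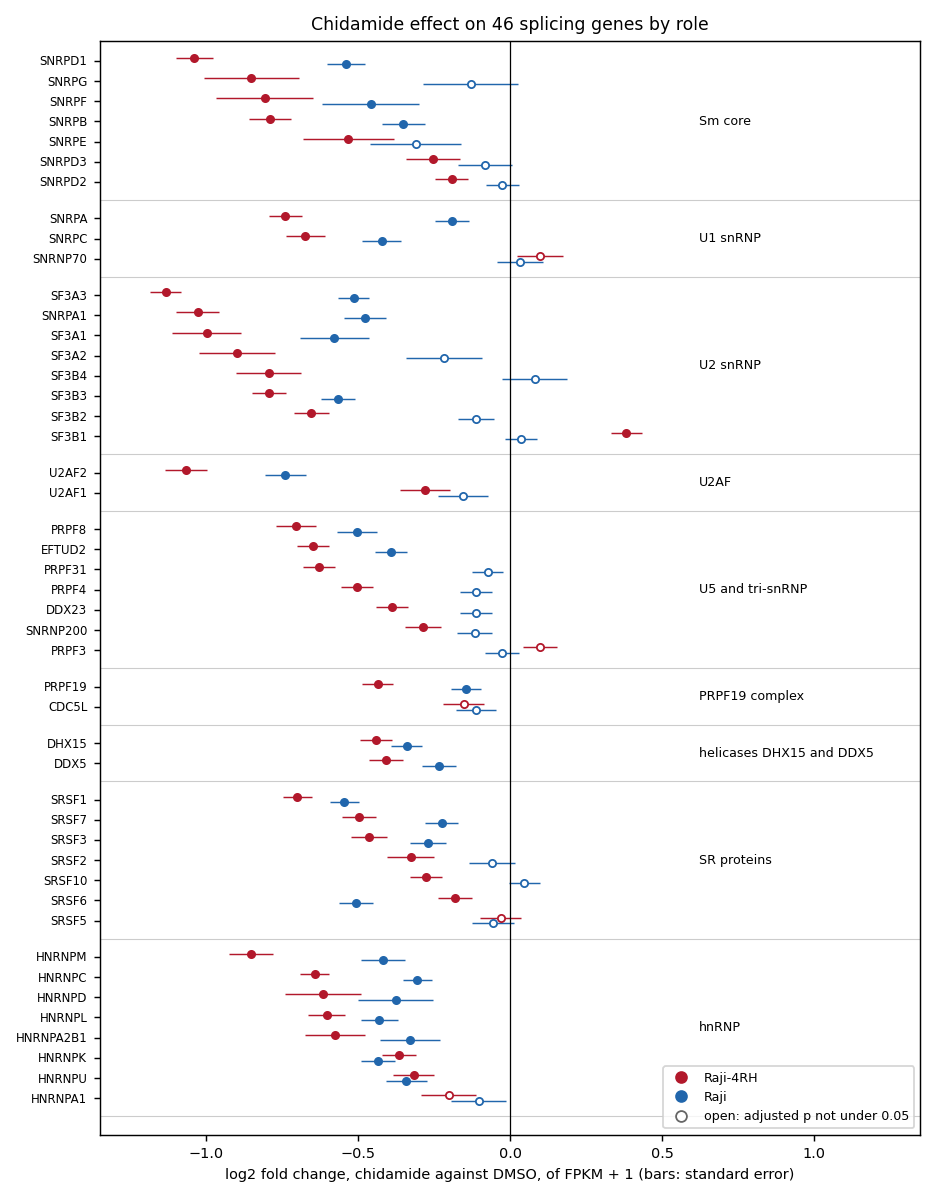
Log2 fold change of FPKM + 1 (horizontal axis) between chidamide and DMSO for each of the 46 genes, grouped by role, in Raji-4RH (red) and Raji (blue). Points are estimates from 2 libraries a group, and bars are standard errors from 1 fit of all 8 libraries. Open points did not pass the adjusted p of 0.05. Most red points lie left of 0, with SF3A3 lowest at -1.13, and SF3B1 is the 1 filled point right of 0.

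The proteins of U2 snRNP, which pairs with the branch point, held the largest fall and the only rise. Of its 8 genes, 7 fell and SF3B1 rose. SF3A3 (ENSG00000183431, chromosome 1, 37956975 to 37990921, GRCh38), a subunit of the SF3A complex, measured 53.0 and 54.6 FPKM in the Raji-4RH DMSO libraries and 24.2 and 23.8 with chidamide. Its chidamide level was 0.446 of the DMSO level, a log2 fold change of -1.13 (SE 0.051, adjusted p = 3.22e-07). SNRPA1 (ENSG00000131876, chromosome 15, 101281510 to 101295282), which binds U2 RNA, measured 33.9 and 32.3 FPKM with DMSO and 16.9 and 14.6 with chidamide. Its log2 fold change was -1.03 (SE 0.070, adjusted p = 2.71e-06). The other SF3A subunits also fell, SF3A2 by 0.90 on the log2 scale and SF3A1 by 1.00, from 56.0 and 59.4 FPKM to 24.6 and 32.6. In the SF3B complex, which contacts the branch point, SF3B4 fell by 0.79, SF3B2 by 0.65 and SF3B3 by 0.79 on the same scale, the last from 26.8 and 26.5 FPKM to 14.3 and 15.7.

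SF3B1 (ENSG00000115524, chromosome 2, 197389784 to 197435091), the largest SF3B subunit and the target of several splicing inhibitors, moved the other way. It measured 34.4 and 33.3 FPKM in Raji-4RH with DMSO and 44.7 and 44.2 with chidamide. Both chidamide libraries were above both DMSO libraries, and the log2 fold change was 0.38 (SE 0.052, adjusted p = 0.000191). U2AF2 (ENSG00000063244, chromosome 19, 55654146 to 55674715), the large U2AF subunit that binds the polypyrimidine tract, measured 114.5 and 115.5 FPKM with DMSO and 57.1 and 51.8 with chidamide. Its log2 fold change was -1.07 (SE 0.068, adjusted p = 1.91e-06). Its partner U2AF1, which reads the AG at the 3′ splice site, was listed at 1.13 and 1.24 FPKM with DMSO and 0.888 and 0.718 with chidamide. That value is uncertain. GRCh38 holds a near-identical copy, U2AF1L5 (chromosome 21, 6484623 to 6499261), besides U2AF1 itself (chromosome 21, 43092956 to 43107587), and reads can be split or lost between them. The row of its values was also unclear, with mean levels of 0.862 FPKM in the row used, 2.06 in the row above and 3.26 in the row of the label. U2AF1 passed the filter on low values only through the Raji-4RH DMSO libraries, so its calls carry no weight. Without it 39 of 45 genes were called lower in Raji-4RH.

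**Figure D2:**
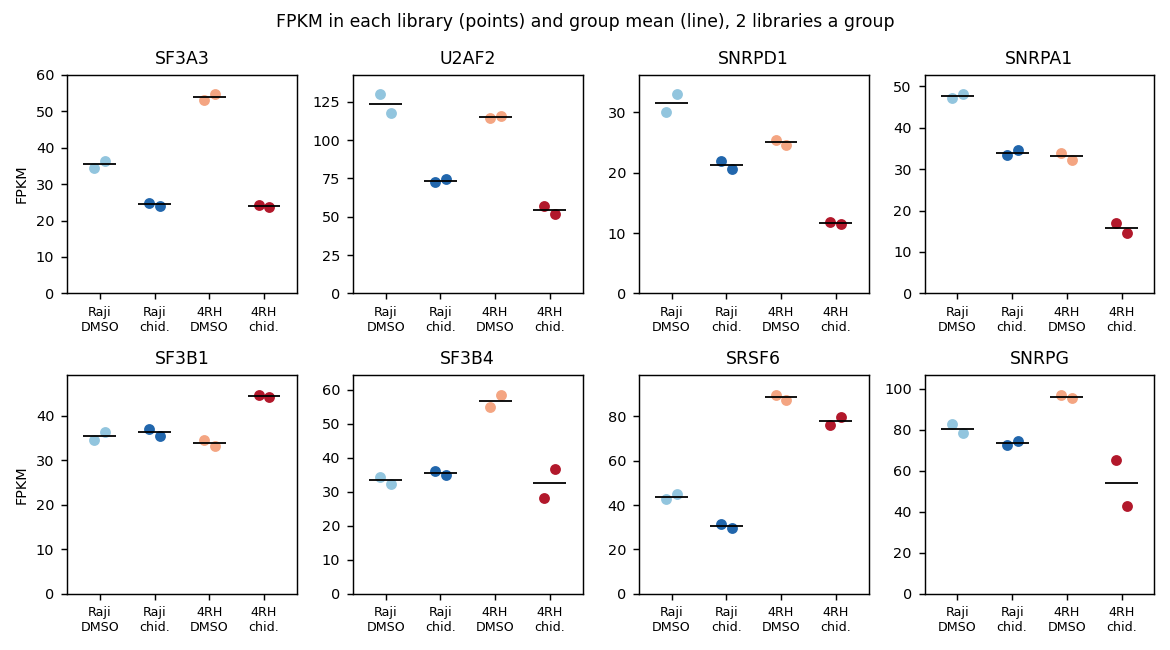
FPKM (vertical axis, from 0) of 8 genes in each library, with 2 points a group and a line at the group mean, in Raji and Raji-4RH (4RH) with DMSO or chidamide (chid.). SF3A3, U2AF2, SNRPD1 and SNRPA1 are lower with chidamide in both lines, SF3B1 is higher with chidamide in Raji-4RH, and the 2 chidamide libraries of Raji-4RH lie apart for SNRPG at 65.2 and 42.7 FPKM.

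All 7 genes of the Sm core fell in Raji-4RH. Their median was -0.79 on the log2 scale. SNRPD1 (ENSG00000167088, chromosome 18, 21612267 to 21633524) measured 25.4 and 24.7 FPKM with DMSO and 11.9 and 11.5 with chidamide, a log2 fold change of -1.04 (SE 0.062, adjusted p = 1.31e-06). SNRPB, which encodes the SmB proteins and had the highest mean level of the 46 genes at 493.1 FPKM, measured 667.4 and 711.0 FPKM with DMSO and 402.8 and 392.9 with chidamide. Its log2 fold change was -0.79 (SE 0.070, adjusted p = 1.34e-05), and part of its exon bases also lie in another gene. SNRPG measured 97.0 and 95.2 FPKM with DMSO and 65.2 and 42.7 with chidamide, so that its replicates lay far apart. SNRPE, at 117.8 and 79.4 FPKM, and SNRPF, at 43.8 and 28.2, were split the same way between the chidamide libraries. The falls of SNRPD2 (0.19 on the log2 scale) and SNRPD3 (0.25) were the smallest of the ring, and under quantile normalization both turned to values above 0. The call of SNRPD2 was lost without either DMSO library of Raji-4RH. The call of SNRPD3 (adjusted p = 0.030) was lost without any 1 of 6 libraries, with no filter and with only the compared libraries in the fit, and its log2 fold change was -0.10 without chidamide replicate 2 of Raji-4RH. That of SNRPE went from -0.53 to -0.25 without the same library. By limma the call of SNRPE was lost under quantile normalization (adjusted p = 0.092) and with only the compared libraries in the fit (adjusted p = 0.054). It was also lost without DMSO replicate 1 of Raji-4RH. In U1 snRNP, SNRPA fell by 0.74 and SNRPC by 0.67 on the log2 scale. SNRNP70, the U1-70K protein that contacts SR proteins, stood at 0.098 (adjusted p = 0.27), and its groups overlapped. Under quantile normalization SNRNP70 was called higher, at 0.37.

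Of the 7 genes of U5 and the tri-snRNP, 6 fell, PRPF3 excepted (log2 fold change 0.099, adjusted p = 0.14). PRPF8, the scaffold of the catalytic core, measured 85.5 and 85.1 FPKM in Raji-4RH with DMSO and 48.5 and 55.5 with chidamide. Its log2 fold change was -0.70 (SE 0.066, adjusted p = 1.81e-05). The GTPase EFTUD2 fell by 0.65, PRPF31 by 0.63, PRPF4 by 0.51, the helicase DDX23 by 0.39 and the helicase SNRNP200 by 0.29 on the log2 scale. In the PRPF19 complex, which joins at activation, the ubiquitin ligase PRPF19 fell by 0.44, whereas CDC5L stood at -0.15 (adjusted p = 0.066). With median-centred libraries and by limma voom on recovered reads CDC5L was called lower. The helicases DHX15, which takes spent spliceosomes apart, and DDX5 fell by 0.44 and 0.41 on the log2 scale. Under quantile normalization SNRNP200 and DDX5 lost their calls, and PRPF3 was called higher at 0.15.

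Among the regulators, 6 of 7 SR genes and 7 of 8 hnRNP genes fell in Raji-4RH. These counts depended on the scaling. Under quantile normalization SRSF2, SRSF3, SRSF6, SRSF10, HNRNPK and HNRNPU lost their calls. HNRNPA1 was then called lower, and SRSF5 was called higher at 0.20. SRSF1, the founding SR protein, measured 155.1 and 152.4 FPKM with DMSO and 95.3 and 93.3 with chidamide, a log2 fold change of -0.70 (SE 0.049, adjusted p = 3.21e-06). Of its exon bases 60.7% also lie in other genes, and strand was not stated for the counting. The same share was 36.7% for SRSF2, 32.0% for PRPF31 and 24.65% for SNRPD3. SRSF6 measured 89.8 and 87.3 FPKM with DMSO and 76.2 and 79.6 with chidamide. It was called lower at -0.18, a direction that turned under quantile normalization. The call of SRSF6 was also lost without either DMSO library of Raji-4RH. SRSF5 stood at -0.031 (adjusted p = 0.69). HNRNPM fell by 0.85 and HNRNPC by 0.64 on the log2 scale, and the smallest called fall of the hnRNP genes was that of HNRNPU, at 0.32. HNRNPA1, a splicing repressor for which 74 pseudogenes are annotated by name, stood at -0.20 (adjusted p = 0.070). With median-centred libraries and by limma voom on recovered reads HNRNPA1 was called lower. By name 20 pseudogenes are annotated for SNRPG and 18 for SNRPC.

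In the sensitive line Raji, 26 of the 46 genes fell with chidamide, 0 rose and 20 did not pass the test by limma. Of all genes tested, 28.5% were called lower and 31.5% higher. At an unadjusted p under 0.05 the number higher was 0 by limma on log2 values and 0 by limma voom on recovered reads. The median log2 fold change was -0.25 over the 46 genes and 0.017 over all genes. The 46 genes took 1.78% and 1.81% of reads with DMSO and 1.47% in both chidamide libraries. With only the Raji libraries in the fit, 5 further genes of the 46 were called lower and 0 calls were lost. Over all genes tested, the number called lower then went from 3051 to 3190. Under quantile normalization 20 of the 46 were called lower in Raji and 2 higher, with 3432 lower and 2642 higher over all genes tested. Groups did not overlap for 37 genes lower and 1 higher with chidamide, against 39.3% and 43.5% of all genes tested. By role, 7 of 8 hnRNP, 4 of 7 SR, 4 of 8 U2 snRNP, 3 of 7 Sm core, 2 of 3 U1, 2 of 7 U5 and tri-snRNP genes, 1 of 2 U2AF and 1 of 2 PRPF19 complex genes and both helicases were called lower.

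U2AF2 had the largest fall in Raji. It measured 129.8 and 117.5 FPKM with DMSO and 72.7 and 74.5 with chidamide, a log2 fold change of -0.74 (SE 0.068, adjusted p = 3.9e-05). SF3A1, a scaffold of SF3A, measured 39.2 and 37.3 FPKM with DMSO and 24.5 and 26.1 with chidamide, a log2 fold change of -0.58. SF3B3 measured 29.4 and 29.2 FPKM with DMSO and 19.7 and 19.1 with chidamide, a log2 fold change of -0.57. SRSF1 measured 157.0 and 160.6 FPKM with DMSO and 109.4 and 107.5 with chidamide, a log2 fold change of -0.55. In each of these genes both chidamide libraries were below both DMSO libraries. The members that led in Raji-4RH fell here too. SNRPD1 went from 29.997 and 32.966 FPKM with DMSO to 22.0 and 20.6 with chidamide, a log2 fold change of -0.54, and SNRPA1 from 47.3 and 48.1 to 33.4 and 34.6, one of -0.48. SNRPB measured 523.8 and 470.0 FPKM with DMSO and 384.9 and 392.4 with chidamide, at -0.35. SRSF6 also fell, from 42.6 and 45.0 FPKM to 31.4 and 29.6. SF3B1 stood at 0.035 in Raji (adjusted p = 0.60).

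The difference between the effects in the lines was tested as an interaction. It was called below 0, meaning a lower value of the effect in Raji-4RH than in Raji, for 21 of the 46 genes. It was called above 0 for 2, and the shares of all genes tested were 21.7% and 27.2%. Of the 21, SF3B4 and SRSF10 fell in Raji-4RH and stood slightly above 0 in Raji (0.081 and 0.047, neither called). The median difference was -0.25 over the 46 genes and 0.038 over all genes. Of the 26 genes called lower in both lines, 13 had a difference called below 0. A further 14 genes were called lower in Raji-4RH and not in Raji, and 8 of these had a called difference. Of the 14, SF3B2, SNRPG, SNRNP200, DDX23 and SNRPE were also called lower in Raji when only the Raji libraries were in the fit. No gene was called lower in Raji alone (0 genes). This depended on the scaling: under quantile normalization SRSF6, HNRNPK and HNRNPU were called lower in Raji and not in Raji-4RH. U2 snRNP held 6 of the 21 genes and the Sm core 3, while neither helicase was among them. The count rested in part on single libraries: it was 13 without DMSO replicate 2 of Raji-4RH and 30 without chidamide replicate 1 of Raji-4RH, and it was 13 under quantile normalization.

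SF3B4 had the largest difference, at -0.88 (SE 0.15, adjusted p = 0.00194). It measured 34.4 and 32.4 FPKM in Raji with DMSO and 35.9 and 34.8 with chidamide, and 54.8 and 58.5 in Raji-4RH with DMSO and 28.2 and 36.7 with chidamide. SNRPG followed at -0.72 (SE 0.22, adjusted p = 0.026), with Raji levels of 82.7 and 78.3 FPKM under DMSO and 72.5 and 74.6 under chidamide. Its call was lost when any 1 of the 6 libraries other than the Raji-4RH chidamide libraries was left out. SF3A2 was at -0.68 (SE 0.18, adjusted p = 0.014), with Raji levels of 55.3 and 45.2 FPKM before and 42.5 and 43.2 after chidamide, and Raji-4RH levels of 50.4 and 54.6 before and 24.3 and 31.5 after it. Its call was lost without DMSO replicate 2 of either line. SF3A3 was at -0.62 (SE 0.072, adjusted p = 0.000272), its Raji libraries measuring 34.5 and 36.3 FPKM with DMSO and 24.9 and 24.1 with chidamide. In the opposite direction, SF3B1 had a difference of 0.35 (SE 0.074, adjusted p = 0.00545), with Raji levels of 34.5 and 36.3 FPKM with DMSO and 37.1 and 35.5 with chidamide. SRSF6 had a difference of 0.32 (SE 0.079, adjusted p = 0.010), since it fell by 0.51 on the log2 scale in Raji, and its call was lost without chidamide replicate 2 of Raji or without DMSO replicate 2 of Raji-4RH.

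**Figure D3:**
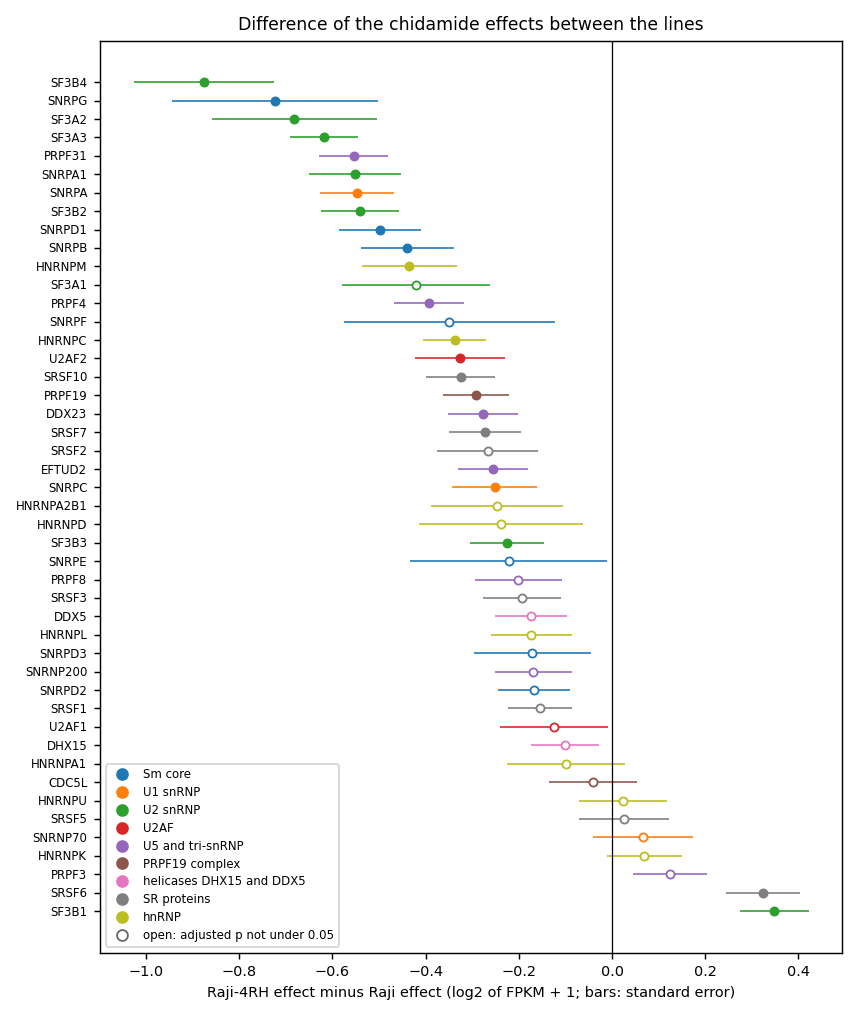
Difference of the chidamide effects, Raji-4RH minus Raji, in log2 of FPKM + 1 (horizontal axis) for each of the 46 genes, ordered by value and coloured by role. Bars are standard errors from 1 fit of all 8 libraries, and open points did not pass the adjusted p of 0.05. The U2 snRNP genes SF3B4, SF3A2 and SF3A3 are among the 4 lowest, and SRSF6 and SF3B1 are the 2 filled points above 0.

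Before treatment the lines differed for single genes in both directions. With DMSO, 12 of the 46 genes were lower and 13 higher in Raji-4RH than in Raji, and 21 did not pass the test. Without U2AF1, which passed the filter through the group where it was higher, 12 were higher. The shares of all genes tested were 32.4% lower and 41.2% higher, and the median over the 46 genes was 0.0050 against 0.063 over all genes. Of the 8 U2 snRNP genes, 4 were higher and 1, SNRPA1, was lower. Among the 3 U1 genes, 2 were lower. SRSF6 measured 42.6 and 45.0 FPKM in Raji DMSO and 89.8 and 87.3 in Raji-4RH DMSO, a log2 fold change of 1.00 (SE 0.056, adjusted p = 8.22e-07). SF3B4 was higher by 0.74, SF3A3 by 0.59 and SF3A1 by 0.58 on the same scale. HNRNPD, which also binds AU-rich elements of mRNA, measured 95.8 and 95.1 FPKM in Raji and 51.7 and 52.6 in Raji-4RH, a log2 fold change of -0.86 (SE 0.12, adjusted p = 0.000282). With chidamide HNRNPD measured 73.1 and 73.6 FPKM in Raji and 39.8 and 28.5 in Raji-4RH, lower than with DMSO in both lines. SRSF7, at 85.3 and 87.6 FPKM in Raji and 54.2 and 57.4 in Raji-4RH, had a log2 fold change of -0.62. SRSF5, at 52.9 and 56.7 against 36.4 and 35.7 FPKM, had one of -0.59. SNRNP70, at 103.0 and 95.3 against 65.6 and 68.5 FPKM, had one of -0.56. SRSF5 and SNRNP70, both lower in untreated Raji-4RH, were not called with chidamide in either line.

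**Figure D4:**
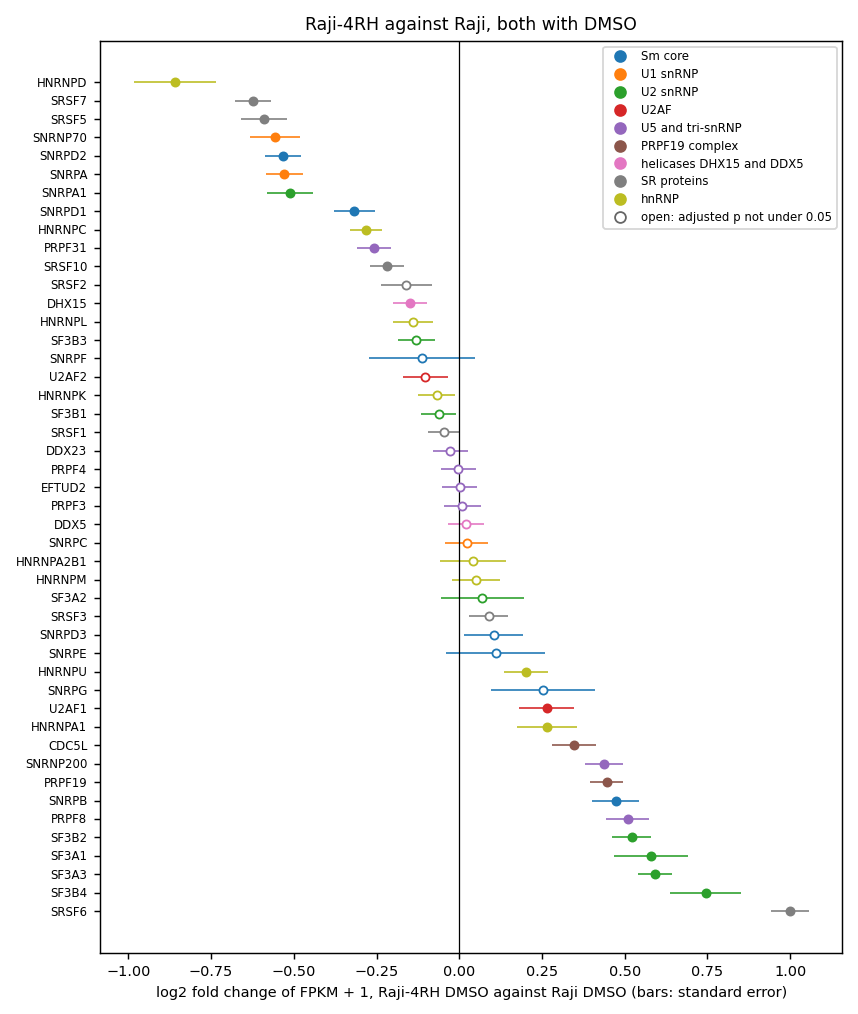
Log2 fold change of FPKM + 1 (horizontal axis) between Raji-4RH and Raji, both with DMSO, for each of the 46 genes, ordered by value and coloured by role. Bars are standard errors from 1 fit of all 8 libraries, and open points did not pass the adjusted p of 0.05. The values run from -0.86 for HNRNPD to 1.00 for SRSF6, with 12 filled points below 0 and 13 above.

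This comparison shares its DMSO libraries with the chidamide comparisons, so their values are set side by side without a test of their relation. For 35 of the 46 genes both Raji-4RH chidamide libraries were below both Raji DMSO libraries, as were 39.3% of all genes tested. SF3A3, for example, stood at 24.2 and 23.8 FPKM in the former and at 34.5 and 36.3 in the latter.

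Levels, which FPKM sets per length of gene, spanned a wide range. The mean over the 8 libraries was at least 10 FPKM for 45 of the 46 genes. SNRPB was highest, followed by HNRNPA1 with a mean of 308.2 FPKM and HNRNPA2B1 with 199.7. U2AF1, with the uncertainty given above, was lowest at 0.862.

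Further genes of the pathway were taken from lists of 163 genes in all, of which 152 could be placed and 146 tested. These lists were chosen with earlier results of these data known. In Raji-4RH 86 of the 146 fell and 21 rose with chidamide, and in Raji 71 fell and 15 rose. The difference between the lines was called below 0 for 48 and above 0 for 19, and with DMSO 33 were lower and 65 higher in Raji-4RH. These counts read against the shares of all genes tested, which were 31.6% lower and 43.3% higher in Raji-4RH, 28.5% and 31.5% in Raji, 21.7% and 27.2% in the difference, and 32.4% and 41.2% between the untreated lines. In Raji-4RH, 27 of 38 further snRNP and LSM proteins fell and 3 rose, and 18 of 35 further hnRNP and RNA-binding regulators fell and 7 rose. Of 24 catalytic and release factors 14 fell and 4 rose, and of 16 snRNP assembly factors 10 fell and 0 rose. Of 11 further SR and SR-like genes 6 fell and 1 rose. The 7 exon junction complex genes tested all fell in Raji-4RH and 6 of them in Raji. The minor spliceosome (2 of 8 lower, 3 higher) and the splicing kinases (2 of 7 lower, 3 higher) had medians above 0 in Raji-4RH, at 0.13 and 0.11.

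ALYREF, an mRNA export adaptor, had the largest fall of these lists. It measured 216.7 and 224.3 FPKM in Raji-4RH DMSO and 44.1 and 42.2 with chidamide, a log2 fold change of -2.33, and 169.1 and 165.7 FPKM in Raji DMSO and 75.1 and 75.4 with chidamide, one of -1.14. PPIH, a prolyl isomerase of the tri-snRNP, fell by 1.25 on the log2 scale in Raji-4RH, from 58.0 and 62.5 FPKM to 25.8 and 23.8. SLU7, which acts in the second step of splicing, rose by 0.83, from 12.2 and 12.1 FPKM to 23.1 and 21.8. The SR protein kinase SRPK2 rose by 0.73 in Raji-4RH and by 0.44 in Raji. In Raji the minor spliceosome genes SNRNP25 and ZMAT5 moved apart, with log2 fold changes of -0.92 and 0.56.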

How the data were processed

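RNA-seq libraries of Raji and Raji-4RH cells were grouped by their labels. Per the labels, RNA was extracted with TRIzol, libraries were made with a NEBNext Ultra kit and sequenced on a HiSeq X instrument, and the submitters' processing notes name HISAT2 2.0.5, SAMtools 1.7, HTSeq 0.9.1, DESeq2 1.22.2 and build hg38. The deposited file is 1 table with gene lengths and an FPKM for every gene in every library. It has 63967 rows, and the last 662 repeat earlier values. Labels stand above their values by a distance that grows down the table; this was undone by a fixed rule of row distances, and FPKM was recomputed with the length of the gene named. Library totals were not given and were recovered as the numbers that turned the values into whole reads. FPKM times length times these totals gave whole reads for 100% of non-zero values (tolerance 0.01 read), and 90.7% to 93.2% of reads were placed. There were 0 unused columns of per-sample values.

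Differences were tested with limma 3.58.1 (R 4.3.3, with a trend in eBayes). The recomputed FPKM entered as log2(FPKM + 1), all 8 libraries in 1 fit. Each gene had 1 spread over all groups, so its standard error was the same in Raji-4RH, in Raji and between the untreated lines. For SNRPE, whose Raji-4RH chidamide libraries lay apart, it was 0.149 in each of these comparisons. The 10710 genes that reached 1 FPKM in 2 or more libraries were tested, at a Benjamini-Hochberg adjusted p under 0.05. The step was tested on simulated data. An exact permutation test of 2 against 2 libraries cannot go below 0.333 and was not used. The labels do not say that replicates came from separate cultures, so p-values measure the spread between these libraries.

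Library values are given for up to 4 genes called in each direction per comparison with a mean of at least 5 FPKM, for the genes with the highest and lowest mean, and for the 2 further pathway genes called highest and lowest per chidamide comparison. PRPF8, SNRPE and SNRPF were added after their values were seen. Members and lists were chosen with earlier results of these data known. Alternatives were another pseudocount, no filter, quantile and median scaling, voom on recovered reads, fewer libraries, a replicate block, genes in the row of their label, and a fold minimum of 0.5 (log2) added after seeing the data. Of the B cell markers, 1 is not reported here.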

Additional observations from a re-analysis of the deposited data

Results flagged for a closer look

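For 23 of the 46 splicing genes the effect of chidamide differed between Raji-4RH and Raji by the interaction test of limma, in 21 with a value below 0 and in 2 with a value above 0. The shares of all genes tested were 21.7% and 27.2%. Values are the Raji-4RH effect minus the Raji effect on the scale of log2(FPKM + 1). In U2 snRNP they were -0.88 for SF3B4, -0.68 for SF3A2, -0.62 for SF3A3, -0.55 for SNRPA1, -0.54 for SF3B2, -0.22 for SF3B3 and 0.35 for SF3B1. In the Sm core they were -0.72 for SNRPG, -0.50 for SNRPD1 and -0.44 for SNRPB. In U1 snRNP and U2AF they were -0.55 for SNRPA, -0.25 for SNRPC and -0.33 for U2AF2. In the tri-snRNP and PRPF19 complex they were -0.55 for PRPF31, -0.39 for PRPF4, -0.28 for DDX23, -0.26 for EFTUD2 and -0.29 for PRPF19. Among SR and hnRNP genes they were -0.32 for SRSF10, -0.27 for SRSF7, 0.32 for SRSF6, -0.44 for HNRNPM and -0.34 for HNRNPC. When each of the 8 libraries was left out in turn, the call was lost without any 1 of 7 for SF3B3, of 6 for SNRPG, SNRPC and EFTUD2, of 5 for U2AF2 and of 3 for SRSF7, and without either of 2 for SF3A2, DDX23 and SRSF6. SF3B3 and SNRPC also lost it with a replicate block. The other genes kept the call in every such fit, but under quantile normalization HNRNPC, HNRNPM, PRPF19 and SRSF10 among them lost it.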

How the results depend on the processing

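Genes in the row of their label left 26 of the 46 genes, of which 21 were called lower in Raji-4RH, 16 lower in Raji, 13 with a difference below 0 and 6 higher in untreated Raji-4RH, where the same 26 genes gave 21, 16, 12 and 6 in the whole table. With a fold minimum of 0.5 the counts were 25 lower and 0 higher in Raji-4RH and 8 lower in Raji, by construction fewer. Under quantile normalization 4 genes were called higher in Raji-4RH and 2 in Raji, and 13 had a difference below 0. Signs of all 46 genes were compared, and values are given for those called or described by library. Under quantile normalization the sign turned for 4 genes in Raji-4RH, SNRPD2 (0.066), SNRPD3 (0.034), SRSF5 (0.20) and SRSF6 (0.087), for 7 in Raji, with SNRPG (0.0080) and SRSF5 (0.094) among them, for 3 in the difference, with SRSF1 (0.063), and for 2 between the untreated lines. With median-centred libraries it turned for 2 in Raji, SNRNP70 (-0.0089) and SF3B1 (-0.0067), for 2 in the difference, with SRSF5 (-0.0099), and for 5 between the untreated lines. The causes were not tested. Leaving out each library in turn gave 1 to 2 genes higher in Raji-4RH, and 13 to 30 genes with a difference below 0 and 1 to 2 above. It turned the sign at least once for 2 genes in Raji-4RH, 4 in Raji, 6 in the difference and 6 between the untreated lines. SNRPE ran from -0.50 to 0.060 in the difference. SNRNP70 ran from -0.0052 to 0.20 in Raji-4RH, from -0.023 to 0.088 in Raji and from -0.038 to 0.17 in the difference. SRSF5 ran from -0.12 to 0.057 in Raji-4RH and from -0.063 to 0.11 in the difference, SF3B1 from -0.00056 to 0.070 in Raji, and SF3A2 from -0.075 to 0.21 between the untreated lines. Deviations of libraries with the same replicate number correlated by -0.28 to 0.17 between groups, which cannot settle whether the numbers pair the libraries. With a replicate block 40 genes were called lower in Raji-4RH, 25 in Raji, 20 in the difference and 11 in untreated Raji-4RH. Depth and 2 libraries a group limit small changes.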
